A study of Homo sapiens with 18 samples.

Results

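The comparison described here sets U2OS cells that carry an altered Ewing sarcoma fusion, mCherry-EWS-FLI1mut, against U2OS cells that carry mCherry alone. U2OS is an established human osteosarcoma cell line, and mCherry is a red fluorescent protein used as a tag. The members are the 3 untreated libraries labelled mCherry-EWS-FLI1mut and the 3 untreated libraries labelled mCherry, 6 of the 18 RNA sequencing libraries of the study. The other untreated groups, each with 3 libraries, carried mCherry-EWS-FLI1 or mCherry-EWS(YS37)-FLI1, and they are used only to show where EWS-FLI1mut cells differed from them. The last 6 libraries came from mCherry-EWS-FLI1 cells given 7.5 µM LY2835219 and labelled 6 or 24 hours, where a protocol text of the same labels names 3 and 6 hours; they entered the fit only. All lines were U2OS with an integrated construct, grown in the same medium with serum, and the mCherry cells carried the tag without any fusion. The sources used here do not say which residues EWS-FLI1mut changes, which promoter drives the constructs, or whether a line was a clone or a pool. No second, independently made line of any construct is labelled, so every p value measures the spread between libraries of 1 line and not between lines.

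EWS-FLI1 is the chimeric transcription factor of Ewing sarcoma, made when the gene EWSR1 is joined to FLI1. It keeps the low-complexity, prion-like start of the EWSR1 protein, which contacts chromatin remodellers and RNA polymerase II, and the ETS domain of FLI1, which binds DNA at a GGAA core. Repeats of GGAA can act as enhancers when the fusion binds them, while binding at single ETS sites and displacement of other ETS factors have been linked to lower expression of many genes. Mesenchymal and osteogenic programmes are among those that the fusion is known to hold down.

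Each library held between 16261034 and 20270637 estimated counts, and 16786 genes were tested. mCherry replicate 2 was the shallowest library of all and lay apart from the other mCherry libraries on the third principal component of the untreated libraries, at 33.1 against 17.1 and 20.9. On the first component it was mCherry replicate 1 that lay apart, at -4.16 against -11.1 and -11.3. The first component held 22.7% of the variance and the third 9.87%. Levels are given as CPM, counts scaled to library size with TMM factors, in the order of replicates 1 to 3. Differences are log2 fold changes, EWS-FLI1mut minus mCherry, ± their standard error, and a gene is said to have risen or fallen only where edgeR's quasi-likelihood test gave a Benjamini-Hochberg adjusted p under 0.05 over all genes. The labelled cell type was read from its markers. Of 18 osteoblast and bone genes 12 passed the filter on low counts, with RUNX2, the master regulator of bone, at 58.7 ± 5.14 CPM in mCherry and 57.5 ± 0.898 CPM in EWS-FLI1mut cells (SD, n = 3) and the matrix gene COL1A1 at 1692 ± 110.4 and 1820.0 ± 137. SP7, BGLAP, IBSP, OMD, MEPE and DMP1, most of them markers of later bone cells, did not pass it. Of the 12, SPARC fell and 0 rose, and the SPARC call was lost without EWS-FLI1mut replicate 2. In bulk RNA a change in every cell and a change in the share of cells that express a gene cannot be told apart.

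The construct was read first, because it checks the labels. FLI1 (ENSG00000151702, chromosome 11, 128686535 to 128813267, plus strand) was at 1.16, 0.426 and 0.0534 CPM in the mCherry libraries and 664, 634 and 626 in the EWS-FLI1mut libraries, a log2 fold change of 10.16 ± 0.17, adjusted p = 2.28e-22. The groups do not come near each other, and endogenous FLI1 was close to absent in mCherry cells. EWSR1, which U2OS cells express, was at 348, 329 and 343 CPM in the mCherry libraries and 1224, 1161 and 1136 in the EWS-FLI1mut libraries, a rise of 1.78 ± 0.05, adjusted p = 6.96e-18. Whether a read came from the construct or from the cell's own genes is not recorded, but the transcripts they were assigned to differ. A short EWSR1 transcript of 1265 bases, ENST00000333395, had 0 estimated counts in all 3 mCherry libraries and 9682, 8990 and 9463 in the EWS-FLI1mut libraries. Nearly all FLI1 reads lay on 1 transcript of 2577 bases, ENST00000608303. FLI1 RNA was also higher than in EWS-FLI1 cells (247 ± 16.3 CPM; log2 difference 1.38 ± 0.09, adjusted p = 1.66e-10) and lower than in EWS(YS37)-FLI1 cells (1019 ± 44 CPM; -0.67 ± 0.09, adjusted p = 2.67e-06), so every contrast between the fusions is also a contrast between amounts of fusion RNA, and these cannot be told apart.

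Many genes differed by small amounts between EWS-FLI1mut and mCherry cells. Of the 16786 genes tested, 592 rose (3.53%) and 608 fell (3.62%), 7.15% in all. Most of these differences were modest: the median rise was 0.39 and the median fall was -0.29, and 66.0% of the rises and 84.5% of the falls were under 0.5 in absolute log2. Only 89 calls, 0.53% of the genes tested, reached 1 in absolute log2, 61 upward and 28 downward. Among the calls size went with level. A gene with few counts can be called only where its difference is large, so these sizes do not describe genes that were not called. Among genes with at least 100 CPM in the higher group, 159 rose with a median of 0.30 and 271 fell with a median of -0.24, and there only FLI1 and EWSR1 reached 1. Among genes between 2 and 10 CPM the 66 rises had a median of 0.99 and the 27 falls a median of -0.95, so the small differences that were called lay mainly in well expressed genes. The 3 and 3 libraries did not overlap for 583 of the 592 rises and 604 of the 608 falls. Separate libraries, where they are described below, therefore add little to a call. Over all genes tested, 12.8% had libraries that were higher without overlap and 13.1% lower. Lists of 33 pathways and cell types held 142 of the calls, and the other 1058, 88.2%, were in none of them.

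**Figure D1:**
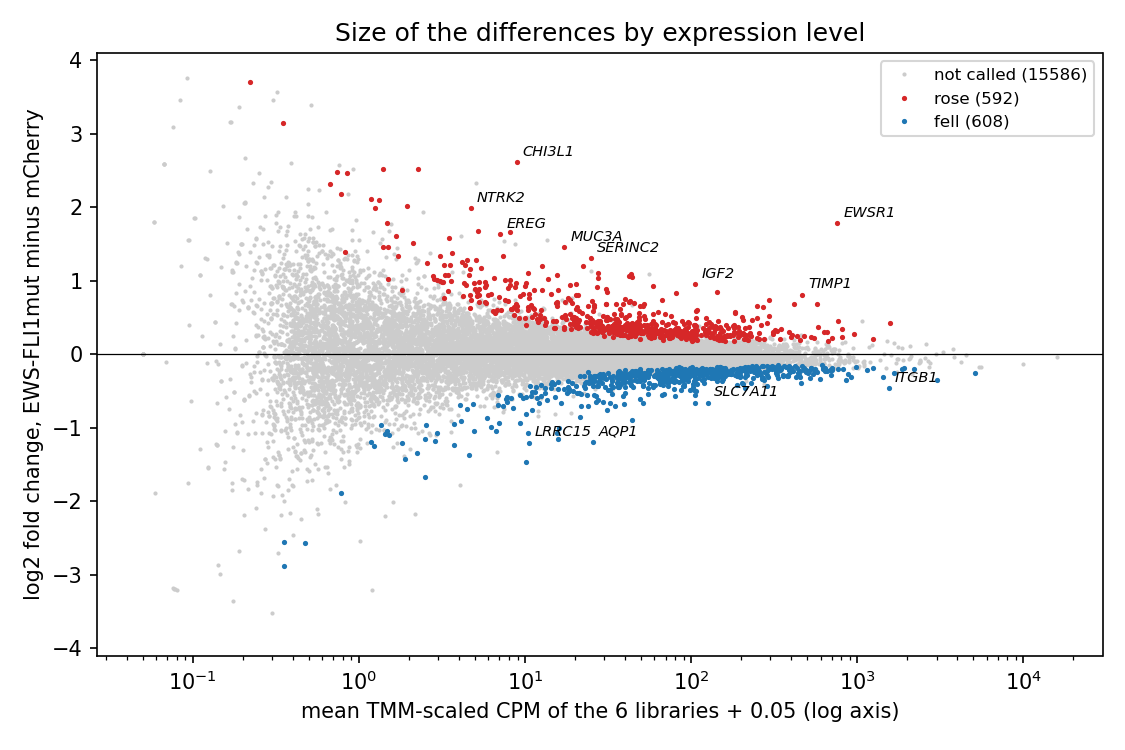
Each point is a gene tested, with the mean CPM of the 6 mCherry and EWS-FLI1mut libraries plus 0.05 on a log axis and the log2 fold change on the vertical axis; red points rose, blue points fell and grey points were not called. The 592 rises and 608 falls hug the zero line at high levels, few pass 1, and 28 genes outside ±4, FLI1 among them, are not drawn.

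The number of calls was lower when single libraries were left out, with length offsets and on the TPM scale. Leaving out a library gave 684 calls without EWS-FLI1mut replicate 1, 684 without replicate 2, 766 without replicate 3, 1012 without mCherry replicate 1, 667 without mCherry replicate 2 and 739 without mCherry replicate 3. With per-gene effective lengths as offsets 360 genes were called, 1.17% of those tested upward and 0.977% downward, and limma on log2(TPM + 1) called 297 rises and 87 falls, 77.3% upward against 49.3% in the count fit. These are called the length-aware settings below, although limma on TPM also leaves out the TMM factors and the count model. Which of these changes moved the calls was not tested. On the log2(TPM + 1) scale the median of all genes was 0.05 higher in EWS-FLI1mut cells, with counts it lay at -0.00013. The naming rule, with unlisted genes added for their small p after values were seen, gave 185 called genes. Of these, 113 kept their call whichever of the 6 libraries was left out and 74 kept it under every alternative. A gene described below as risen or fallen kept its call under all of them unless a loss is stated beside it.

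The strongest rises included secreted proteins, receptors and a regulator of G proteins. CHI3L1 (ENSG00000133048, chromosome 1, 203178931 to 203186749, minus strand), a secreted chitinase-like glycoprotein of cartilage and inflamed tissue, was at 1.9, 2.31 and 3.2 CPM in the mCherry libraries and 13.1, 17.4 and 15 in the EWS-FLI1mut libraries. The lowest EWS-FLI1mut library lay above the highest mCherry library by a wide margin, a rise of 2.61 ± 0.38, adjusted p = 1.09e-04. NTRK2 (ENSG00000148053, chromosome 9, 84668551 to 85027070, plus strand) encodes TrkB, the receptor for brain-derived neurotrophic factor, and was at 1.84, 1.77 and 1.98 CPM in the mCherry libraries and 8.45, 6.18 and 7.67 in the EWS-FLI1mut libraries (1.99 ± 0.28, adjusted p = 1.03e-04). EREG (ENSG00000124882, chromosome 4, 74365143 to 74388751, plus strand), the EGF receptor ligand epiregulin, was at 2.21, 4.08 and 4.003 CPM in the mCherry libraries and 11.4, 11.8 and 8.65 in the EWS-FLI1mut libraries (1.63 ± 0.25, adjusted p = 1.79e-04). For both genes all EWS-FLI1mut libraries lay above all mCherry libraries. RGS4 (ENSG00000117152, chromosome 1, 163068775 to 163076802, plus strand), a brake on G protein signalling, was at 2.95, 4.87 and 3.79 CPM in the mCherry libraries and 10.9, 13.7 and 12.3 in the EWS-FLI1mut libraries (1.67 ± 0.19, adjusted p = 5.57e-06). RGS4 was the single gene that rose among 13 tested RGS proteins, whose median was -0.19, and none of them fell.

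The same rule named further rises. MUC3A, a membrane mucin, rose from a mean of 9.16 to 25.2 CPM (1.46 ± 0.15), and KLK5, a secreted serine protease, from 0.747 to 3.06 (2.01 ± 0.37). LHX5, a homeodomain factor of the developing forebrain, rose from 1.07 to 3.07 CPM (1.51 ± 0.34). RAB27B, a small GTPase of secretory vesicles, rose by 1.58 ± 0.34, with the call lost in the length-aware settings. The muscle myosin MYH11 was uneven, at 0.369, 0.914 and 0.694 CPM in the mCherry libraries and 5.5, 4.69 and 1.13 in the EWS-FLI1mut libraries: replicate 3 lay far below the others, and its call (2.52 ± 0.69, adjusted p = 0.0257) was lost on dropping any library except that one. C4A (1.68 ± 0.43) and NBPF4 (1.61 ± 0.36) share 95.5% and 89.7% of their 31-base stretches with other genes, so their reads cannot be placed with certainty. C4A lost its call on dropping replicate 2 of either group, and NBPF4 without EWS-FLI1mut replicate 2.

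The strongest falls included a water channel, a stromal surface protein and a matrix-binding protein. AQP1 (ENSG00000240583, chromosome 7, 30911694 to 30925516, plus strand), the water channel aquaporin, was at 34.7, 36.9 and 34.5 CPM in the mCherry libraries and 14.9, 16 and 15.6 in the EWS-FLI1mut libraries. Both groups were tight and far apart (-1.19 ± 0.10, adjusted p = 4.81e-08), and AQP1 was also lower than in EWS-FLI1 cells (-1.38 ± 0.10) and in EWS(YS37)-FLI1 cells (-0.91 ± 0.10). Another gene model holds 25.6% of its 31-base stretches. LRRC15 (ENSG00000172061, chromosome 3, 194355247 to 194369743, minus strand), a surface protein of activated fibroblasts and osteosarcoma, was at 15.1, 16.5 and 12.2 CPM in the mCherry libraries and 6.05, 7.01 and 5.99 in the EWS-FLI1mut libraries (-1.20 ± 0.15, adjusted p = 1.60e-05). TNFAIP6, a secreted hyaluronan-binding protein of inflamed matrix, was at 5.64, 7.98 and 6.03 CPM in the mCherry libraries and 2.5, 2.58 and 2.51 in the EWS-FLI1mut libraries (-1.37 ± 0.22, adjusted p = 3.72e-04). In each of these genes the highest EWS-FLI1mut library lay below the lowest mCherry library, which the naming rule required of the largest falls. GALNT15, an enzyme that starts O-linked glycans, was at 20.7, 21.3 and 23.4 CPM in the mCherry libraries and 9.25, 8.71 and 11.4 in the EWS-FLI1mut libraries (-1.16 ± 0.16, adjusted p = 9.26e-05), with the call lost in the length-aware settings. AOX1, an aldehyde oxidase, fell by 1.07 ± 0.13 from a mean of 20.9 to 9.95 CPM. MOB3B, a MOB family kinase activator, fell by 1.05 ± 0.18, and the folate receptor FOLR1 fell by 0.99 ± 0.19.

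Several further falls rest on fewer settings. SMOC1, a secreted calcium-binding protein, was at 17.6, 22.7 and 23.1 CPM in the mCherry libraries and 10.4, 9.02 and 12.3 in the EWS-FLI1mut libraries (-0.996 ± 0.14, adjusted p = 8.87e-05), a call lost on the TPM scale. DOCK2 (-1.07 ± 0.17), KIAA1324 (-1.04 ± 0.16) and CNTN1 (-0.94 ± 0.17) lost theirs in the length-aware settings. Calls for F13A1 (-1.23 ± 0.29) and KRT16 (-1.34 ± 0.32) were both lost on dropping EWS-FLI1mut replicate 2 or mCherry replicate 3, with adjusted p up to 0.069. CBWD6 had the largest fall among genes above 10 CPM (-1.46 ± 0.30, adjusted p = 0.00426) and kept its call throughout, but 91.6% of its 31-base stretches occur in other genes, its close copies CBWD3 and CBWD5 above all. The chemokine CCL2 was at 1.58, 2.74 and 3.1 CPM in the mCherry libraries and 0.8, 0.876 and 1.53 in the EWS-FLI1mut libraries (-1.20 ± 0.31, adjusted p = 0.0181), near the lower limit of what these libraries resolve, and its call was lost when any of EWS-FLI1mut replicates 1 and 2 and mCherry replicates 2 and 3 was dropped.

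**Figure D2:**
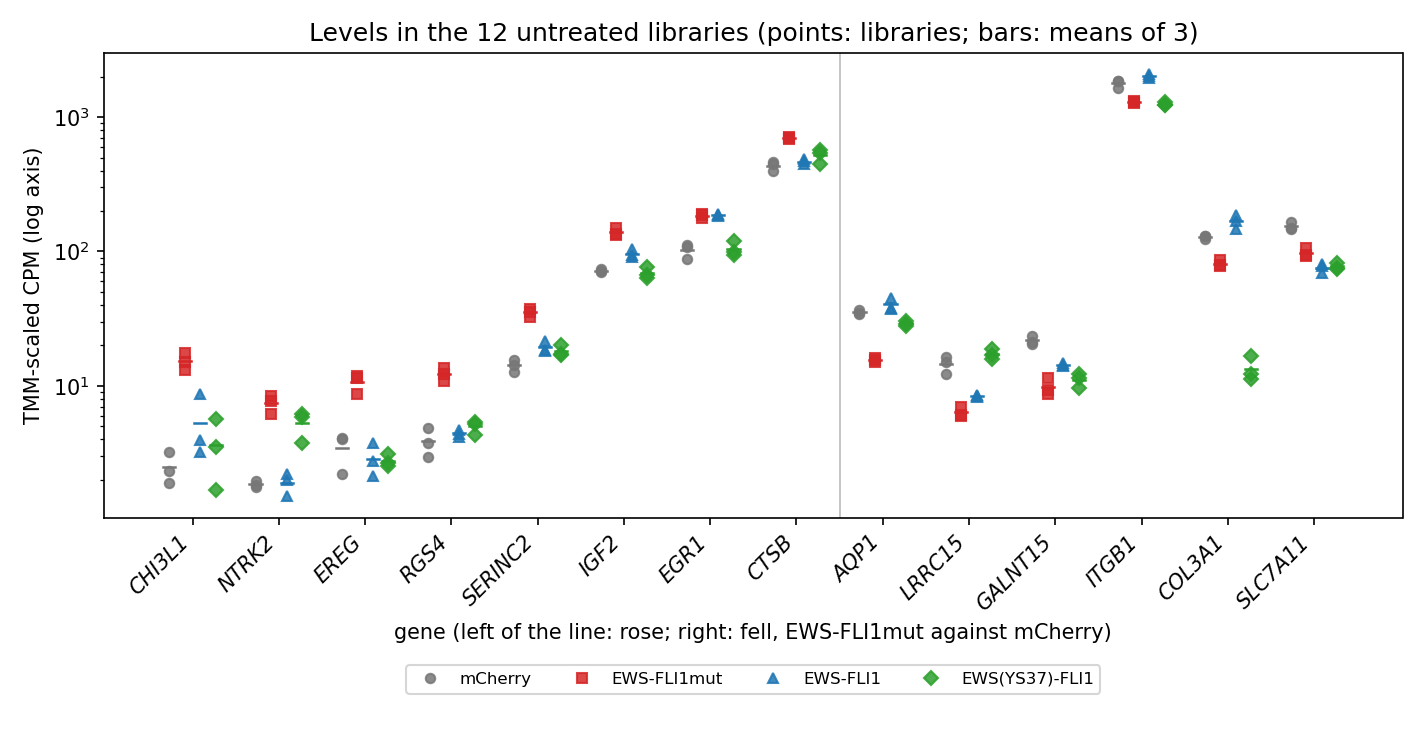
TMM-scaled CPM on a log axis for 14 genes in the 12 untreated libraries; each point is a library, each short bar a mean of 3, and the vertical line parts genes that rose from genes that fell. CHI3L1, EREG, RGS4 and SERINC2 stand above all other lines in EWS-FLI1mut cells, AQP1 stands below them, while EGR1 is about as high in EWS-FLI1 cells.

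Because the FLI1 part of the fusion binds GGAA and the immediate early genes that rose are classical serum response genes, the 250 bases before the RefSeq start of named genes were read for both. The motifs searched on both strands were GGAAGGAA, a doubled GGAA core; CCGGAAGT, a full ETS site; TGANTCA, the AP-1 site; and the CArG box, the serum response factor site. Of 27305 RefSeq promoters of this length 2.99% held GGAAGGAA, 3.64% CCGGAAGT, 6.60% TGANTCA and 1.14% a CArG box. For the 11879 that belong to tested genes the shares were 3.13%, 6.36%, 4.34% and 1.03%. None of the 4 was in the windows of NTRK2, EREG and RGS4. All 4 were also absent from the windows of FOS, IER2, NR4A1 and ZFP36, immediate early genes that rose. Bases further than 250 from the start were not read, so absence from a window does not show that a gene lacks such a site. With matches in capitals, the sequences are those of the strongest listed rise with a match, the best known serum response gene and 2 falls (RefSeq, GRCh38.p14, 5′ to 3′ on the gene's strand). CHI3L1 is chr1:203186705-203186954, minus strand, EGR1 is chr5:138465229-138465478, plus strand, AQP1 is chr7:30911603-30911852, plus strand and LRRC15 is chr3:194369744-194369993, minus strand.
CHI3L1: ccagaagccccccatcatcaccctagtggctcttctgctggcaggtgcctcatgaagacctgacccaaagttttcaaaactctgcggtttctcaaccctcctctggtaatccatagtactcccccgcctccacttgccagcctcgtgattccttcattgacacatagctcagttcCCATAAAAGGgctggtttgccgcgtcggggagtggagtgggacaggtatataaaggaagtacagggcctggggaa
EGR1: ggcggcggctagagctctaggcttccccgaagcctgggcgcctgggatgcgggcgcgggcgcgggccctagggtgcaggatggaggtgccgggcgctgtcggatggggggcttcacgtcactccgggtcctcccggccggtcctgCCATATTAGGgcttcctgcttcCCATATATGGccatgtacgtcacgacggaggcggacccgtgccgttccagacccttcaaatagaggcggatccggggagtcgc
AQP1: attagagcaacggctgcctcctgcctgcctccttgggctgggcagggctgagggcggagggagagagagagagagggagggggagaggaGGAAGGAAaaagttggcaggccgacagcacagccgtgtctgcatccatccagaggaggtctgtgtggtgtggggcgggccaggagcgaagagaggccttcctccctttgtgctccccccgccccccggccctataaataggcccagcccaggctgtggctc
LRRC15: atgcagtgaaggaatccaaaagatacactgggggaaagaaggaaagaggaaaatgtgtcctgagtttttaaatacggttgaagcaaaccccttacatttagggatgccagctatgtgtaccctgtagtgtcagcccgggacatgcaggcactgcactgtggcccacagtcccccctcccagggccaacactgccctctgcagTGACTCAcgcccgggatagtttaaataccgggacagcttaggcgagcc
The capitals mark 1 CArG box in CHI3L1, 2 CArG boxes in EGR1, 1 GGAAGGAA in AQP1 and 1 TGANTCA match in LRRC15. A match is a description of the letters and does not show binding.

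Outside all lists, the smallest p values included those of growth factors, receptors and membrane proteins, and these genes were chosen after their values were seen. SERINC2, a membrane serine incorporator, was at 15.4, 12.8 and 14.4 CPM in the mCherry libraries and 37.4, 32.7 and 35.6 in the EWS-FLI1mut libraries (1.31 ± 0.10, adjusted p = 2.15e-08). IGF2 (ENSG00000167244, chromosome 11, 2129112 to 2149603, minus strand), insulin-like growth factor 2, was at 70.7, 73.7 and 71.9 CPM in the mCherry libraries and 149.8, 136 and 133 in the EWS-FLI1mut libraries (0.95 ± 0.07, adjusted p = 8.41e-09), and 72.7% of its 31-base stretches recur in overlapping gene models, the INS-IGF2 read-through included. Both genes were separate from every mCherry library and higher than in both other fusion lines. MET (ENSG00000105976, chromosome 7, 116672390 to 116798386, plus strand), the hepatocyte growth factor receptor, was at 67.6, 56 and 52 CPM in the mCherry libraries and 114, 106 and 92.5 in the EWS-FLI1mut libraries (0.83 ± 0.09, adjusted p = 1.87e-06). KITLG, the ligand of the KIT receptor, was at 12.5, 15.1 and 13.4 CPM in the mCherry libraries and 26.7, 28.8 and 24.2 in the EWS-FLI1mut libraries (0.96 ± 0.11, adjusted p = 1.05e-05). Directly, KITLG was higher than in EWS-FLI1 (1.22 ± 0.12) and EWS(YS37)-FLI1 cells (1.11 ± 0.11), whereas MET differed from EWS-FLI1 (1.18 ± 0.09) but was not called against EWS(YS37)-FLI1 (0.02 ± 0.08, adjusted p = 0.873).

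Other genes of this set spanned signalling, adhesion and membrane traffic. SYTL5, a Rab27 effector, rose by 1.10 ± 0.09 and TSHZ2, a zinc finger factor, by 0.88 ± 0.09. TLR4, the receptor for bacterial lipopolysaccharide, rose from 46, 50.9 and 52.4 to 84.2, 88.2 and 77 CPM (0.74 ± 0.09). The laminin chain LAMA5 rose by 0.65 ± 0.08 and the protocadherin PCDH7 by 0.85 ± 0.10. GABRA2, a GABA receptor subunit, rose from 7.61 to 17.6 CPM on average (1.21 ± 0.15), and KLHL4, a kelch protein, from 13.5 to 31 (1.204 ± 0.15). Less stable were TTC28 (0.93 ± 0.08) and the mechanosensitive channel PIEZO2 (0.68 ± 0.08), whose calls were each lost in the length-aware settings. Of the 27 genes added in this way 4 fell. CCBE1, a secreted factor of lymphatic growth, fell by 0.86 ± 0.11, a call lost in the length-aware settings. GJA1, the gap junction protein connexin 43, fell by 0.55 ± 0.07 from 118, 132 and 127 to 81.8, 87.8 and 88 CPM. QPRT, an enzyme of NAD synthesis, fell by 0.76 ± 0.09, with 25.5% of its stretches shared with other genes. RFPL4A fell by 0.90 ± 0.09, with 74.8% of its stretches shared with other genes.

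Among the gene lists, p53 targets had the most rises. Of 28 tested, 14 rose and 0 fell, 50% against 3.53% of all genes, with a median of 0.24 against -0.00013 for all genes. The lists below are likewise to be read beside 3.53% of all genes that rose and 3.62% that fell. p53 is the stress-activated tumour suppressor, and U2OS cells carry it unmutated. The cell cycle inhibitor CDKN1A was at 141, 129 and 130.1 CPM in the mCherry libraries and 174, 172 and 161 in the EWS-FLI1mut libraries (0.34 ± 0.06, adjusted p = 5.59e-04) and the p53 ligase MDM2 at 96.7, 92.8 and 90.7 CPM in the mCherry libraries and 112, 127 and 108 in the EWS-FLI1mut libraries (0.31 ± 0.07, adjusted p = 0.00663). TP53INP1, a stress protein, was at 25.6, 34.8 and 32.1 CPM in the mCherry libraries and 43.1, 47.9 and 43.9 in the EWS-FLI1mut libraries (0.55 ± 0.09, adjusted p = 5.49e-04). In all 3 the libraries were separate though the difference was small. CDKN1A and MDM2 were picked here after their values were seen, as the best known targets, and their own stability was not checked. GDF15, a stress cytokine that ATF4 also drives, rose the most, 1.26 ± 0.20, from 2.42 to 5.84 CPM, and the antiproliferative BTG2 rose by 0.39 ± 0.07. FAS (0.54 ± 0.16) and GADD45A (0.34 ± 0.08) lost their calls when single libraries were left out. The count of rises was between 8 and 9 with any 1 of the 6 libraries left out, 6 with length offsets and 8 on the TPM scale. Set directly against the other lines, 11 of the 28 were higher and 0 lower than in EWS-FLI1 cells (7.51% and 8.78% of all genes), and 4 higher and 8 lower than in EWS(YS37)-FLI1 cells (12.7% and 14.5%).

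Immediate early genes, which serum and growth factors switch on within minutes, rose in 6 of 16 and fell in 0, with a median of 0.33. EGR1 was at 88.2, 108 and 111 CPM in the mCherry libraries and 189, 187 and 178 in the EWS-FLI1mut libraries (0.85 ± 0.09, adjusted p = 1.87e-06), and FOS at 9.59, 11 and 12.4 CPM in the mCherry libraries and 18.7, 20.2 and 21.9 in the EWS-FLI1mut libraries (0.88 ± 0.14, adjusted p = 2.41e-04). Both were separate from mCherry and both kept their calls. ZFP36 (0.68 ± 0.16), NR4A1 (0.37 ± 0.08), FOSL1 (0.36 ± 0.09) and IER2 (0.26 ± 0.07) also rose but each lost the call without at least 1 library. The count was between 3 and 5 with a library left out. EGR1 and FOS were not called against EWS-FLI1 cells (-0.02 ± 0.09 and -0.06 ± 0.13, adjusted p = 0.907 and 0.82) and were higher than in EWS(YS37)-FLI1 cells (0.82 ± 0.09 and 1.05 ± 0.14). The list went otherwise. Of the 16 genes 0 were higher and 3 lower than in EWS-FLI1 cells (7.51% and 8.78% of all genes). Against EWS(YS37)-FLI1 cells 4 were higher and 6 lower (12.7% and 14.5%). Of 17 feedback genes of the MAPK pathway 2 rose and 0 fell, 11.8% called beside 7.15% of all genes. The 2 were the receptor EPHA2 (0.36 ± 0.07) and the phosphatase DUSP1 (0.33 ± 0.10, lost on dropping any library except EWS-FLI1mut replicate 3). Of 14 EGF family ligands and receptors EREG and EGFR rose. EGFR (0.38 ± 0.10) lost its call when any of EWS-FLI1mut replicates 1 and 3 and mCherry replicates 1 and 3 was dropped, and with length offsets its sign turned, to -0.04 (adjusted p = 0.964).

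Neurotrophins, secreted factors that act through Trk and sortilin family receptors, rose in 5 of 12 and fell in 0, with a median of 0.54. Besides NTRK2, its ligand gene BDNF was at 7.91, 7.43 and 7.9 CPM in the mCherry libraries and 14.8, 12.6 and 12 in the EWS-FLI1mut libraries (0.76 ± 0.15, adjusted p = 0.00332). The sorting receptor SORL1 was at 18.6, 17.5 and 14.3 CPM in the mCherry libraries and 28.2, 25.2 and 22.7 in the EWS-FLI1mut libraries (0.60 ± 0.11, adjusted p = 0.0019) and SORCS1 at 2.79, 2.98 and 2.99 CPM in the mCherry libraries and 7.85, 4.95 and 5.73 in the EWS-FLI1mut libraries (1.08 ± 0.21, adjusted p = 0.00218). The EWS-FLI1mut libraries were above all mCherry libraries in each of these genes. NTRK3 (0.62 ± 0.17) lost its call on dropping any of EWS-FLI1mut replicates 1 and 3 and mCherry replicates 2 and 3. The count was between 4 and 5 with a library left out, 2 with length offsets, 2 on the log2(TPM + 1) scale and 1 with a pseudocount of 0.1. SORL1 and SORCS1 lost their calls in the length-aware settings, and BDNF with the smaller pseudocount. NTRK2 was higher than in EWS-FLI1 cells (1.96 ± 0.28, adjusted p = 2.71e-05), where it stood at 1.9 ± 0.359 CPM, but was not called against EWS(YS37)-FLI1 cells (0.50 ± 0.26, adjusted p = 0.172), where it stood at 5.27 ± 1.33 CPM.

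Wnt signalling depends on secreted Wnt ligands, Frizzled receptors and the R-spondin and LGR pair, which keeps Frizzled at the surface. Of 23 tested genes of this list 8 rose and 0 fell, with a median of 0.25. The ligand WNT5A was at 29.4, 26.2 and 27.5 CPM in the mCherry libraries and 43.5, 40.3 and 38.2 in the EWS-FLI1mut libraries (0.55 ± 0.09, adjusted p = 2.74e-04). The R-spondin receptor LGR5 was at 7.01, 6.09 and 6.62 CPM in the mCherry libraries and 13.2, 15.2 and 14.2 in the EWS-FLI1mut libraries (1.11 ± 0.18, adjusted p = 3.59e-04), and LGR4 at 34.8, 37.5 and 30.6 CPM in the mCherry libraries and 54.4, 57.8 and 55.2 in the EWS-FLI1mut libraries (0.70 ± 0.13, adjusted p = 0.00104). All libraries of these 3 genes were separate. AXIN2, the feedback gene most often read as a sign of Wnt output, was at 45.3, 39.6 and 39.3 CPM in the mCherry libraries and 53.5, 54.4 and 57.9 in the EWS-FLI1mut libraries (0.42 ± 0.09, adjusted p = 0.00485), though 24.7% of its stretches are shared with an overlapping gene model. The R-spondin RSPO3 was low and less certain, at 2.58, 1.77 and 3.31 CPM in the mCherry libraries and 5.65, 6.86 and 6.19 in the EWS-FLI1mut libraries (1.28 ± 0.34, adjusted p = 0.022), and lost its call on dropping any library except mCherry replicate 3. FZD7 (0.39 ± 0.11), LEF1 (0.36 ± 0.10) and SFRP1 (0.31 ± 0.09) made up the 8. LEF1 and SFRP1 fall outside the naming rule and were not checked singly, and FZD7 lost its call whichever of the 6 libraries was dropped. The count was between 4 and 5 with a library left out, and 4 with length offsets or on the TPM scale. Against EWS-FLI1 cells 6 of the 23 were higher and 2 lower (7.51% and 8.78% of all genes), and against EWS(YS37)-FLI1 cells 11 were higher and 1 lower (12.7% and 14.5%).

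**Figure D3:**
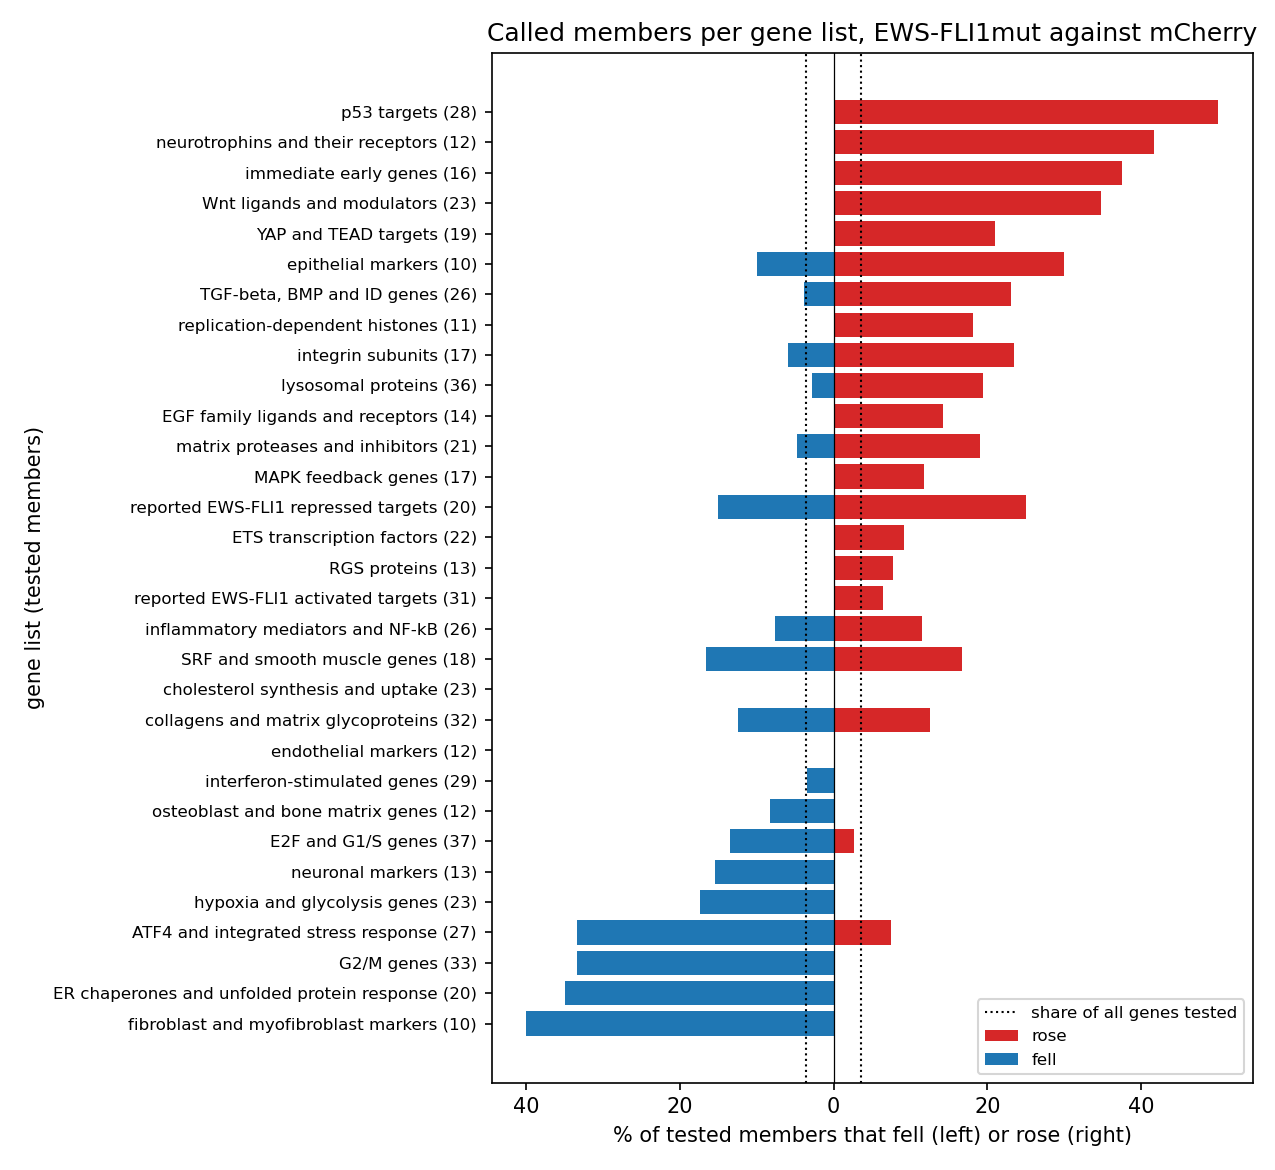
Bars give the percent of tested members of each gene list with at least 10 tested members that rose (red, to the right) or fell (blue, to the left) in EWS-FLI1mut against mCherry cells; dotted lines mark 3.53% and 3.62%, the shares over all genes tested. p53 targets, neurotrophins, immediate early and Wnt genes lean right, while fibroblast markers, ER chaperones, G2/M and ATF4 genes lean left.

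Falls outnumbered rises in lists of endoplasmic reticulum, amino acid, cell cycle and glycolysis genes. Of 20 endoplasmic reticulum chaperones and unfolded protein response genes 7 fell and 0 rose, with a median of -0.15. HSPA5, the main chaperone BiP, was at 731, 686 and 661 CPM in the mCherry libraries and 628, 584 and 559.9 in the EWS-FLI1mut libraries (-0.23 ± 0.05, adjusted p = 0.00791), and HYOU1, a partner of it, at 79.3, 77.3 and 73 CPM in the mCherry libraries and 66.7, 61.3 and 62 in the EWS-FLI1mut libraries (-0.27 ± 0.06, adjusted p = 0.00774). The differences were small, and all libraries were separate. HSPA5 lost its call without EWS-FLI1mut replicate 3 (adjusted p = 0.056), and both lost theirs on the TPM scale. The count was between 1 and 5 with a library left out, 3 with length offsets and 0 on the TPM scale. Directly, 8 of the 20 were lower than in EWS-FLI1 cells and 8 lower than in EWS(YS37)-FLI1 cells, with 0 and 1 higher. Of all genes 8.78% and 14.5% were lower in these contrasts, and 7.51% and 12.7% higher.

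ATF4 targets, which supply amino acids under stress, fell in 9 of 27 and rose in 2. SLC7A11, the cystine transporter, was at 149, 165 and 148 CPM in the mCherry libraries and 94.6, 106 and 92.3 in the EWS-FLI1mut libraries (-0.66 ± 0.08, adjusted p = 2.25e-05), the only named fall of the list that kept its call under all alternatives. PSAT1 of serine synthesis (-0.28 ± 0.07) and the glutathione-degrading CHAC1 (-0.65 ± 0.18) lost their calls when single libraries were left out, and CBS (-0.34 ± 0.07) in the length-aware settings. The rises were GDF15 and the phosphatase subunit PPP1R15A (0.26 ± 0.08, lost on dropping any library except EWS-FLI1mut replicate 2). The falls numbered between 3 and 7 with a library left out, 2 with length offsets and 1 on the TPM scale. Directly, 8 of the 27 were higher and 1 lower than in EWS-FLI1 cells (7.51% and 8.78% of all genes). Against EWS(YS37)-FLI1 cells 1 was higher and 16 lower (12.7% and 14.5%). SLC7A11 was above both (0.36 ± 0.08 and 0.34 ± 0.08).

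Of 33 genes of G2 and mitosis 11 fell and 0 rose, with a median of -0.15. The centromere protein CENPF was at 519, 500.1 and 525 CPM in the mCherry libraries and 376, 377 and 431 in the EWS-FLI1mut libraries (-0.38 ± 0.09, adjusted p = 0.00783), the checkpoint kinase TTK at 50.1, 47.5 and 50.9 CPM in the mCherry libraries and 39.3, 36.2 and 35.3 in the EWS-FLI1mut libraries (-0.42 ± 0.09, adjusted p = 0.00336) and ECT2, which organises cell division, at 134, 131 and 124 CPM in the mCherry libraries and 102, 107 and 97 in the EWS-FLI1mut libraries (-0.34 ± 0.08, adjusted p = 0.00667). Each of these 3 kept its call whichever library was left out but lost it in the length-aware settings. CENPE (-0.44), HMMR (-0.42) and ASPM (-0.31) fell too. They lost their calls without 3, 4 and 2 of the single libraries, and in the length-aware settings. The 11 falls became between 4 and 8 with a library left out, 1 with length offsets and 0 on the TPM scale. Of 37 E2F and G1/S genes 5 fell, among them BRCA1 (-0.33 ± 0.07), and MCM7 rose (0.18 ± 0.05, lost on dropping any of EWS-FLI1mut replicates 1 and 3 and mCherry replicates 2 and 3). BRCA1 kept its call whichever library was left out and lost it in the length-aware settings. The 5 falls became between 1 and 4 with a library left out and 0 with length offsets or on the TPM scale, where 2 rose. Against EWS-FLI1 cells 26 of these 37 were higher and 0 lower, and 6 of the 33 G2/M genes were higher and 0 lower. Of all genes 7.51% were higher and 8.78% lower in this contrast. Of 23 hypoxia and glycolysis genes 4 fell and 0 rose, namely PGK1 (-0.34 ± 0.05), PGAM1 (-0.30 ± 0.05), LDHA (-0.27 ± 0.05) and the carbonic anhydrase CA12 (-0.49 ± 0.11). Of these only PGAM1 kept its call under all alternatives, the others losing theirs at least on the TPM scale, and 34.9% of its stretches are shared with other genes.

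Of 36 lysosomal proteins tested 7 rose and 1 fell, with a median of 0.09. The protease cathepsin B, CTSB, was at 395, 446 and 464 CPM in the mCherry libraries and 687, 702 and 714 in the EWS-FLI1mut libraries (0.69 ± 0.07, adjusted p = 2.43e-06), and the cholesterol carrier NPC2 at 175, 222 and 236 CPM in the mCherry libraries and 301, 332 and 355 in the EWS-FLI1mut libraries (0.64 ± 0.09, adjusted p = 6.14e-05). CTSL was at 91.5, 87.8 and 97.7 CPM in the mCherry libraries and 127, 119 and 117 in the EWS-FLI1mut libraries (0.39 ± 0.06, adjusted p = 2.26e-04). These 3 kept their calls, with no overlap, and CTSB and NPC2 were higher than in EWS-FLI1 (0.59 ± 0.07 and 0.52 ± 0.09) and EWS(YS37)-FLI1 cells (0.43 ± 0.07 and 0.72 ± 0.09). SMPD1 (0.51 ± 0.11), TPP1 (0.39 ± 0.08) and CTSD (0.30 ± 0.08) rose with calls that at least 1 alternative ended. The count was between 5 and 7 with a library left out and 4 with length offsets. Directly, 7 of the 36 were higher and 7 lower than in EWS-FLI1 cells (7.51% and 8.78% of all genes). Against EWS(YS37)-FLI1 cells 6 were higher and 4 lower (12.7% and 14.5%). The summed level of the list was 3827 to 4032 TPM in mCherry and 4841 to 4997 TPM in EWS-FLI1mut libraries.

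Matrix and adhesion genes moved in both directions. Of 32 collagens and matrix glycoproteins 4 rose and 4 fell, which became between 2 and 5 rises and between 2 and 4 falls with a library left out, and 1 rise and 3 falls with length offsets. Thrombospondin 1, THBS1, was at 642, 645 and 649 CPM in the mCherry libraries and 939, 863 and 843 in the EWS-FLI1mut libraries (0.45 ± 0.05, adjusted p = 6.54e-06), while the fibrillar collagen COL3A1 was at 124, 130.5 and 130.3 CPM in the mCherry libraries and 78, 79.7 and 86.2 in the EWS-FLI1mut libraries (-0.66 ± 0.10, adjusted p = 2.41e-04). TNC, tenascin C, fell by 0.40 ± 0.07, a call lost on the TPM scale. Among 21 proteases and inhibitors 4 rose and ADAMTS6 fell (-0.66 ± 0.12, lost in the length-aware settings). The metalloproteinase inhibitor TIMP1 was at 286, 348 and 373 CPM in the mCherry libraries and 569, 610.0 and 588 in the EWS-FLI1mut libraries (0.81 ± 0.11, adjusted p = 6.69e-05), and its libraries were separate. Of 17 integrin subunits, the receptors that hold cells to matrix, 4 rose and 1 fell. ITGA2, the alpha chain of a collagen receptor, was at 23.2, 31.3 and 31.6 CPM in the mCherry libraries and 62, 61 and 54.6 in the EWS-FLI1mut libraries (1.05 ± 0.12, adjusted p = 5.57e-06). Its partner ITGB1, the common beta chain, fell by 0.46 ± 0.05, from 1646, 1855 and 1858 to 1279, 1315 and 1302 CPM. ITGB1 was lower than in EWS-FLI1 cells (-0.63 ± 0.05) and was not called against EWS(YS37)-FLI1 cells (0.06 ± 0.05, adjusted p = 0.455). ITGB4 (0.71 ± 0.10) and ITGB8 (0.35 ± 0.07) rose but lost their calls in the length-aware settings.

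Of 19 targets of YAP and TEAD, the factors that read cell shape and contact, 4 rose and 0 fell, and the count was 4 with any library left out and in each length-aware setting. CTGF was at 204, 227 and 225 CPM in the mCherry libraries and 364, 364 and 368 in the EWS-FLI1mut libraries (0.74 ± 0.06, adjusted p = 1.12e-07) and CYR61 at 172 ± 7.17 CPM in mCherry and 237.8 ± 10.1 in EWS-FLI1mut libraries (mean ± SD, n = 3), a rise of 0.47 ± 0.06. FOXF2, a forkhead factor of mesenchyme, was at 19.6, 17.3 and 19.6 CPM in the mCherry libraries and 33.1, 34.2 and 39.4 in the EWS-FLI1mut libraries (0.92 ± 0.10, adjusted p = 2.38e-06), and AMOTL1, a YAP-binding protein, rose by 0.35 ± 0.05. The list's median was 0.01, near that of all genes. Of 26 TGF-beta, BMP and ID genes 6 rose and 1 fell, but only FST, the activin antagonist follistatin (0.66 ± 0.08, adjusted p = 3.02e-05), kept its call under all alternatives; the count of rises was between 1 and 3 with a library left out. Of 18 SRF and smooth muscle genes 3 rose and 3 fell, with the myosin light chain MYL9 up (0.38 ± 0.07) and the chaperone CRYAB down (-0.45 ± 0.08); the rises numbered between 1 and 2 with a library left out.

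Cell type markers were read beside these groups. Of 10 fibroblast and myofibroblast markers 4 fell and 0 rose: LRRC15, the protease FAP (-0.93 ± 0.21), the receptor PDGFRA (39.8, 49.3 and 49.96 against 28.2, 33 and 32.3 CPM; -0.57 ± 0.10, adjusted p = 9.91e-04) and VIM (-0.19 ± 0.05). PDGFRA lost its call in the length-aware settings and FAP and VIM theirs without single libraries, and the count was between 3 and 4, falling to 2 with length offsets and 1 on the TPM scale. THY1 (-0.02 ± 0.06) and PDGFRB (0.06 ± 0.08) were not called. The list's summed level was 2032 to 2099 TPM in mCherry and 1933 to 1948 TPM in EWS-FLI1mut libraries. Of 10 epithelial markers, whose summed level was 531 to 581 TPM in mCherry and 797 to 822 TPM in EWS-FLI1mut libraries, 3 rose, the keratins KRT8 (332, 296 and 328 against 499, 522 and 519.5 CPM; 0.69 ± 0.05, adjusted p = 2.15e-08) and KRT18 (0.29 ± 0.05) and the tight junction gene CLDN1 (1.01 ± 0.14), and CLDN4 fell (-0.54 ± 0.14, lost on dropping EWS-FLI1mut replicate 1, EWS-FLI1mut replicate 2 or mCherry replicate 3). KRT8 and KRT18 share 18.9% and 28.1% of their stretches with other genes. EPCAM (5.67 ± 0.332 and 5.3 ± 0.781 CPM) and CDH1 (1.26 ± 0.391 and 1.03 ± 0.376 CPM), which define epithelium, stayed low and were not called. The part of the marker lists in the results above was not tested. Of 13 neuronal markers 2 fell, SNAP25 (-0.60 ± 0.15) and NCAM1 (-0.21 ± 0.06), both lost without single libraries. Of 12 endothelial and 4 blood cell markers tested edgeR and DESeq2 called 0, and 2 and 0 of them had an unadjusted p under 0.05. Their summed levels were low, 16.8 to 21.4 TPM in mCherry and 21.2 to 27.6 TPM in EWS-FLI1mut libraries for endothelial and 6.96 to 8.72 TPM in mCherry and 5.1 to 11 TPM in EWS-FLI1mut libraries for blood cell markers. For blood cells PTPRC averaged 0.869 ± 0.35 and 1.07 ± 0.302 CPM.

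Known targets of the fusion in Ewing sarcoma were read as well, from lists made out of general knowledge. Of 31 reported activated targets 2 rose and 0 fell, 6.45% called beside 7.15% of all genes. PAPPA, a metalloprotease that frees IGF, rose by 0.80 ± 0.13 (6.8, 6.7 and 6.78 against 10.1, 11.7 and 13.6 CPM, adjusted p = 3.09e-04), a call lost in the length-aware settings. GSTM4, a glutathione transferase, rose by 0.39 ± 0.08 (37, 30.2 and 35.6 against 46.3, 46.9 and 42 CPM, adjusted p = 0.00292), though 22.9% of its stretches are shared with other genes. Of 20 reported repressed targets 5 rose (CDKN1A, THBS1, TIMP1, CTGF and CYR61) and 3 fell (COL3A1, CRYAB and TNC). Direct tests against EWS-FLI1 cells called 5 of the 31 activated targets higher and 1 lower in EWS-FLI1mut cells, and 2 of the 20 repressed targets higher and 10 lower. Of all genes 7.51% were higher and 8.78% lower in this contrast. Beside FLI1 itself, the ETS factor list of 22 had a single further rise, ELF4 (0.27 ± 0.08, lost on dropping any library except EWS-FLI1mut replicate 3). Cholesterol synthesis genes, 23 in number, had 0 calls by edgeR and by DESeq2 and 0 with an unadjusted p under 0.05, and 1 fell with length offsets. Directly, 10 of them were lower and 0 higher than in EWS-FLI1 cells, beside 8.78% and 7.51% of all genes.

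Direct contrasts showed where the altered fusion parts from the others. Against EWS-FLI1 cells 2734 genes differed (16.3%; 1260 higher and 1474 lower in EWS-FLI1mut cells), and against EWS(YS37)-FLI1 cells 4565 (27.2%; 2131 higher and 2434 lower). Of the 592 rises against mCherry, 171 were also higher than in EWS-FLI1 cells, 54 were lower than there and 367 were not called between the lines. Of the 608 falls, 167 were lower than in EWS-FLI1 cells, 36 higher and 405 not called. With length offsets the direct contrasts called 1262 and 2574 genes. A gene not called between the lines is not shown to be equal in them. Higher in EWS-FLI1mut cells than in all 3 other untreated lines were 113 genes (0.673%), and lower than in all of them 101 (0.602%). CHI3L1, EREG, RGS4, SERINC2, IGF2, KITLG, CTSB, NPC2, FOXF2, LGR4 and AXIN2 were among the former and AQP1, MOB3B, AOX1, RFPL4A and SMOC1 among the latter. CHI3L1 stood at 5.29 ± 2.94 CPM in EWS-FLI1 and 3.62 ± 1.98 in EWS(YS37)-FLI1 cells, with direct differences of 1.52 ± 0.34, adjusted p = 0.00315 and 2.06 ± 0.36, adjusted p = 1.20e-04. EREG stood at 2.87 ± 0.798 and 2.77 ± 0.317 CPM there, with differences of 1.88 ± 0.25, adjusted p = 9.20e-06 and 1.94 ± 0.25, adjusted p = 2.92e-06.

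In 66 genes EWS-FLI1mut and EWS-FLI1 cells were called on opposite sides of the same mCherry libraries, 27 higher and 39 lower in EWS-FLI1mut cells. All 66 differed directly, which opposite calls in the same fit make nearly certain, so this adds no separate support. HERC3, a ubiquitin ligase, was at 25.3, 28.5 and 27.6 CPM in the mCherry libraries and 57.5, 56.8 and 56.5 in the EWS-FLI1mut libraries, and at 18.6, 16.8 and 14 CPM in EWS-FLI1 cells. Its difference from mCherry was 1.07 ± 0.14 in EWS-FLI1mut and -0.72 ± 0.15 in EWS-FLI1 cells, and the call in the former was lost with length offsets and with a TPM pseudocount of 0.1. HOXA13, a homeobox factor of the distal limb, was at 12.1, 9.75 and 7.95 CPM in the mCherry libraries and 22.2, 23.1 and 17.6 in the EWS-FLI1mut libraries, and at 6.54, 6.19 and 4.35 CPM in EWS-FLI1 cells. NOS1, a nitric oxide synthase, gave 0.94 ± 0.16 in EWS-FLI1mut and -0.76 ± 0.17 in EWS-FLI1 cells. LGR4 gave 0.70 ± 0.13 and -0.59 ± 0.13, and AXIN2 0.42 ± 0.09 and -0.35 ± 0.09. MET gave 0.83 ± 0.09 and -0.35 ± 0.09. In the other direction SMOC1 gave -0.996 ± 0.14 and 1.34 ± 0.13, and F13A1 -1.23 ± 0.29 and 0.80 ± 0.26. These fold changes share the mCherry libraries, so the direct contrast is given for the size of each difference. For HERC3 it was 1.79 ± 0.14, adjusted p = 6.38e-09, for HOXA13 1.88 ± 0.22, adjusted p = 2.28e-06 and for SMOC1 -2.33 ± 0.14, adjusted p = 5.16e-11. HOXA13 and NOS1 lost their calls against mCherry in the length-aware settings.

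**Figure D4:**
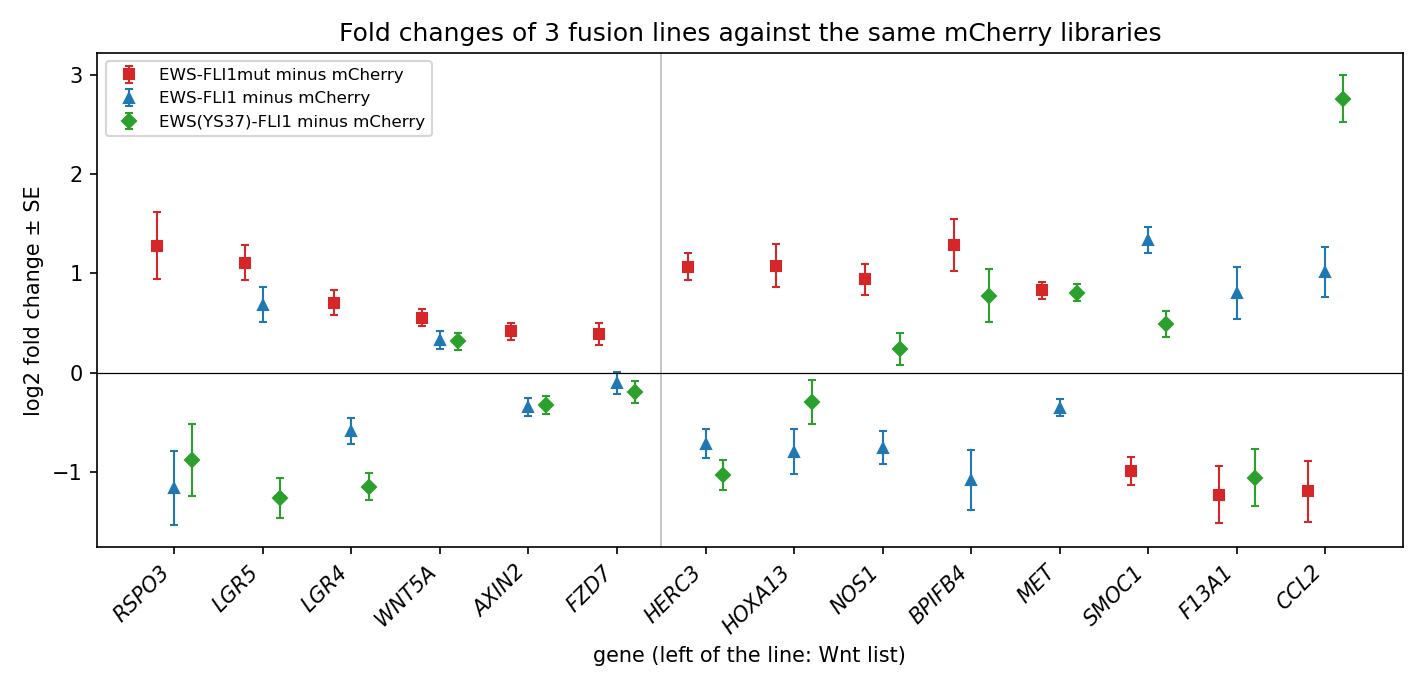
Points are log2 fold changes against the same 3 mCherry libraries and bars their standard errors, for Wnt genes (left of the line) and other genes, in EWS-FLI1mut (red), EWS-FLI1 (blue) and EWS(YS37)-FLI1 cells (green). RSPO3, LGR4, AXIN2, HERC3, HOXA13, NOS1 and MET lie above 0 in EWS-FLI1mut and below 0 in EWS-FLI1 cells, and SMOC1, F13A1 and CCL2 the reverse.

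The share of calls varied between chromosomes, which is given as a description. On chromosome 7, 59 of 840 tested genes rose (7.02%), and 38 of these began between 90000001 and 110000000 (GRCh38, GENCODE 29). The window joins the 2 stretches of 10 Mb with the highest share of rises on the chromosome and was chosen after its values were seen. It held 194 tested genes, of which 38 rose (19.6%) and 0 fell, with a median of 0.18, and 153 of the 194 lay above 0. The rises were small, with a median of 0.34, and included MUC3A, the laminin LAMB1, the replication helicase subunit MCM7, the G protein subunit GNB2 (0.40 ± 0.06), the receptor EPHB4 (0.45 ± 0.08) and the transcription cofactor TRRAP (0.28 ± 0.07). The last 3 were picked after their values were seen and not checked singly, and LAMB1 lost its call with length offsets. In the same window the median was 0.17 in EWS-FLI1 and 0.05 in EWS(YS37)-FLI1 cells against the same mCherry libraries, and 13 genes were higher and 14 lower in EWS-FLI1mut than in EWS-FLI1 cells. MUC3A and MCM7, named in earlier paragraphs, lie in a stretch where most genes were higher, as does LAMB1. On chromosome 21, 22 of 168 genes fell (13.1%) and 7 rose, with a median of -0.10. It was -0.13 in EWS-FLI1 and -0.06 in EWS(YS37)-FLI1 cells. CBS, named above among ATF4 targets, lies there, and 56.3% of its stretches are shared with other genes, among them its copy CBSL. Chromosome 20 leaned upward with 25 rises and 6 falls of 440 (median 0.07), against 0.10 in each of the other lines. Of 267 windows of 10 Mb with at least 20 tested genes, 230 had medians within 0.1 of 0. What underlies these regional medians was not tested.

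**Figure D5:**
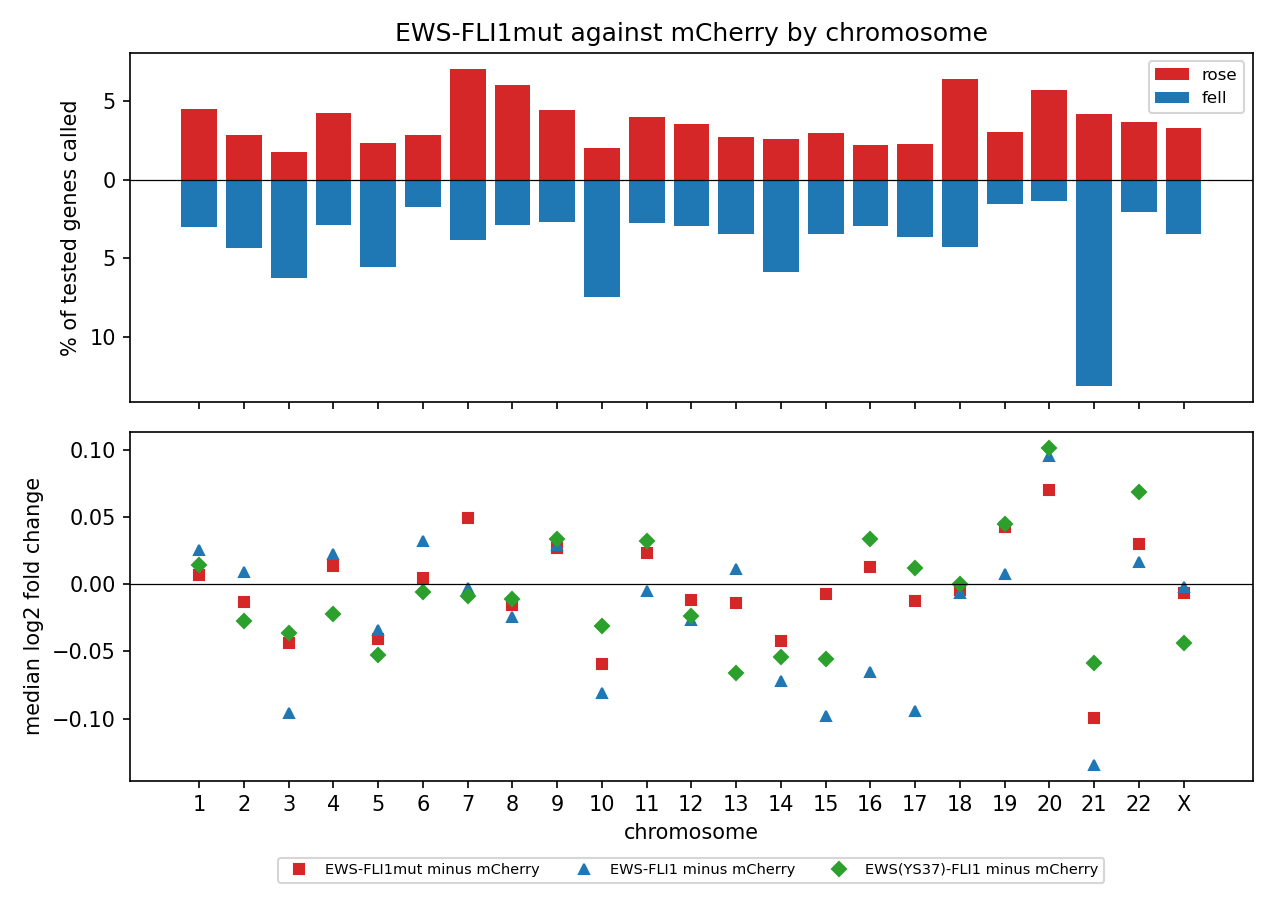
The upper panel gives the percent of tested genes on each chromosome that rose or fell in EWS-FLI1mut against mCherry cells, and the lower panel the median log2 fold change of each chromosome in 3 fusion lines against the same mCherry libraries. Rises are densest on chromosome 7 (7.02%) and falls on chromosome 21 (13.1%), where all 3 lines have medians below 0.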

How the data were processed

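The authors deposited 1 transcript table per library with kallisto estimated counts (expected counts), TPM and effective lengths in bases (a unit other than expression), per the file headers. The submitters' processing notes name kallisto 0.46, CASAVA and hg38. The transcript set and strandedness are not given in the sources used here, and the labels name a pair of library kits but no kit per library. Of 188753 transcripts 169797 matched GENCODE 29 by versionless identifier. The unmatched held 2.59% to 2.74% of counts and were left out. The set is nearly all protein-coding genes and pseudogenes: 11 long non-coding RNA genes were tested, and none is named.

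Estimated counts were summed per gene, rounded, filtered (filterByExpr) and fitted with edgeR 4.0.16 (R 4.3.3; TMM, quasi-likelihood, 18 libraries in 6 groups, 12 residual degrees of freedom, biological coefficient of variation 8.77%). Standard errors were derived from the fold change and its F statistic. The script was tested on simulated data. Alternatives were RLE and upper-quartile factors, other filters, a replicate block, length offsets, fewer groups, each library left out, limma 3.58.1 on log2(TPM + 1) or + 0.1, and DESeq2 1.42.0. Libraries of a group differed by more than counting noise. Replicates are called biological in the labels, with no separate lines named.

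The rule named FLI1, EWSR1, CHI3L1, NTRK2 and EREG, the 20 largest rises and 20 largest falls of at least 2 CPM without overlap, up to 6 called genes per list, or the 2 most abundant where none was called, and up to 10 genes called alike against 3 lines or oppositely in EWS-FLI1mut and EWS-FLI1. From the 30 unlisted coding genes of smallest p, 27 were added after values were seen. Some genes that the rule selects are not reported here. Comparisons, members and lists were chosen with earlier results of these data known.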

Additional observations from a re-analysis of the deposited data

Results flagged for a closer look

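In 9 genes the altered and the unaltered fusion were called on opposite sides of mCherry. The direct contrast between the lines was called as well, which this choice of genes makes nearly certain, so it adds no separate support. The 9 are among the 10 that the naming rule takes from the 66 such genes. The log2 difference, EWS-FLI1mut minus EWS-FLI1, was 2.447 for the R-spondin RSPO3, 2.369 for BPIFB4, 1.878 for the limb homeobox gene HOXA13, 1.81 for the pseudogene HSPD1P11, 1.789 for the ubiquitin ligase HERC3 and 1.7 for the nitric oxide synthase NOS1. It was -2.335 for SMOC1, -2.211 for the chemokine CCL2 and -2.037 for the transglutaminase subunit F13A1. BPIFB4 was at 3.16, 2.92 and 2.62 CPM in mCherry, 7.3, 5.98 and 7.98 in EWS-FLI1mut and 0.716, 1.94 and 1.45 in EWS-FLI1 libraries. Against mCherry, RSPO3, CCL2, F13A1 and HSPD1P11 lost their calls when single libraries were dropped, and BPIFB4, HOXA13, NOS1, HERC3 and SMOC1 lost theirs in at least 1 length-aware setting.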

How the results depend on the processing

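RLE or upper-quartile factors, other filters, fewer groups in the fit and DESeq2 left the counts of rises and falls within 1.5 times those reported. Rises are given here as percent of genes tested, 3.53% in the count fit, and falls likewise, 3.62%. With length offsets they were 1.17% and 0.977%, and 1262 genes differed from EWS-FLI1 and 2574 from EWS(YS37)-FLI1 cells. On log2(TPM + 1) limma gave 1.77% and 0.518%, and 1276 and 2735 genes in the direct contrasts. With a pseudocount of 0.1 it gave 1.55% and 0.506%, and 1122 and 2584, with 75.4% of calls upward. The cause of these shifts was not tested. Leaving out 1 library gave 1.99% to 2.94% rises and 1.79% to 2.94% falls against mCherry, 1927 to 2330 calls against EWS-FLI1 and 3564 to 3960 against EWS(YS37)-FLI1 cells. EGFR turned from 0.38 to -0.0381 with length offsets, and no other called gene of the naming rule changed sign under any alternative run.

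Libraries with the same replicate number correlated at 0.061, 0.062 and 0.041 in their deviations from the group means and others at -0.041 to -0.019. Each library correlated best with its own number, a hint from the data and not the design, so the samples were treated as sharing only a number. The fit with the replicate block called 1271 genes, 1145 of them shared with the 1200.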

Other observations

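Promoter letters were counted by call. RefSeq windows were matched for 434 of the 592 rises, 483 of the 608 falls and 10962 genes not called. The full ETS site CCGGAAGT was in 2.30% of the rises, 9.94% of the falls and 6.37% of genes not called. GGAAGGAA was in 3.69%, 3.11% and 3.11%, TGANTCA in 4.15%, 4.56% and 4.34%, and the CArG box in 1.84%, 0.828% and 1.00% (8, 4 and 110 genes). These shares are descriptions without a test.

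Of 29 interferon-stimulated genes tested 1 fell, beside 3.62% of all genes tested. It was IFITM2 (-0.49 ± 0.11), which shares 45.2% of its 31-base stretches with other genes and lost its call in the length-aware settings. Of 26 inflammatory mediators 3 rose and 2 fell, with NFKBIA, the inhibitor of NF-kB, at 24.9, 23.7 and 26.7 CPM in the mCherry libraries and 33, 31.3 and 34.1 in the EWS-FLI1mut libraries (0.39 ± 0.09, adjusted p = 0.00682) while TNFAIP6 and CCL2 fell.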
